A study of Mus musculus with 4 samples.

Results

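This section describes 43 genes known from hepatocytes, the main cell type of the liver, as they were measured in mouse lung tumours. All 43 were found by symbol among the 23787 genes that the array's accessions could be paired with. Otc and Fgl1 were chosen from their low values in CD109-/- tumours in the comparison described here, and the other members were chosen by what is known of hepatocytes, with results of these data already known. The difference between genotypes is therefore given for the members as a description and is not used as evidence about the list. The tumours came from KP mice on the C57BL/6J strain, a model in which Cre recombinase starts lung tumours. All mice received adenovirus with Cre recombinase through the trachea 88 to 92 days before RNA was taken, and the sources used here name neither the promoter that drove Cre nor the age of the mice. The groups were 2 tumour samples with an intact Cd109 gene (CD109+/+, both female) and 2 lacking it (CD109-/-, replicate 1 male and replicate 2 female). CD109 is a membrane-anchored glycoprotein that binds the transforming growth factor TGF-beta, and the study asked which gene sets go with its loss.

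Hepatocytes make most of the soluble proteins of blood plasma, among them albumin, transferrin, the apolipoproteins, the fibrinogen chains and many clotting factors and inhibitors. They also hold the full urea cycle, which turns ammonia into urea, and the enzymes that break down tyrosine and tryptophan and make glucose. These genes are switched on together by a small group of transcription factors, including HNF1, HNF4, FOXA and C/EBP proteins. Several of these factors are also made in other tissues that derive from the gut tube, the lung among them, and single members of the list have other known sources, such as Arg1 in macrophages and Trf in many epithelia.

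Each sample was read on 1 single-colour array, and every value below is the log2 of the processed signal minus that array's 75th percentile. The 75th percentile lay between 557 and 688 intensity units, between 64.3% and 67.0% of spots passed the scanner's call of well above background, and saturation marked 0 spots. Cd109 itself gave values of -3.70 and -4.66 with the gene intact and was not well above background on either array of the tumours lacking it. The alveolar type 2 markers, which check the labelled tissue, were well above background on all 4 arrays for 10 of 10 genes, with Sftpc, a surfactant protein gene, between 8.79 and 9.11. Levels of different probes are not compared, since each probe has its own response. In tumour pieces, fewer cells of a kind and less RNA per cell cannot be told apart. Nothing in the labels says whether each replicate was its own animal, so errors and p-values measure only the spread between these samples. For a single gene, exact permutation of 2 against 2 samples, two-sided, cannot go below p = 0.333.

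Most of the hepatocyte genes gave a signal in these tumours, as did most genes on the array. Over the whole array, 15649 of 23787 genes were well above background on all 4 arrays. Of the 43 hepatocyte genes, 31 were well above background on all 4 arrays, 5 on 3 arrays, 2 on 1 array and 5 on none. The 5 without such a signal on any array were Cps1, the first enzyme of the urea cycle, the tyrosine enzymes Hpd and Hgd, Pck1, which commits carbon to glucose synthesis, and Serpina6, the corticosteroid carrier of plasma. Cps1 ranged from -7.38 to -5.62, Hpd from -7.99 to -7.66, Hgd from -8.10 to -7.80, Pck1 from -8.06 to -6.51 and Serpina6 from -8.01 to -6.96. G6pc, which releases free glucose, gave -4.98 and -5.82 in CD109+/+ and -6.44 and -6.23 in CD109-/- tumours, with only the first well above background. The fibrinogen chain gene Fgb gave -6.75, -4.00, -7.47 and -7.78, with only CD109+/+ replicate 2 well above background. Values listed in fours here and below are in the order CD109+/+ replicates 1 and 2, CD109-/- replicates 1 and 2. Genes were compared between genotypes where both arrays of 1 genotype or more had signal. Of the 23787 genes 16443 passed this filter, 36 members among them. Of these 36, 31 had signal on all 4 arrays and the other 5 lacked it on 1 array.

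**Figure D1:**
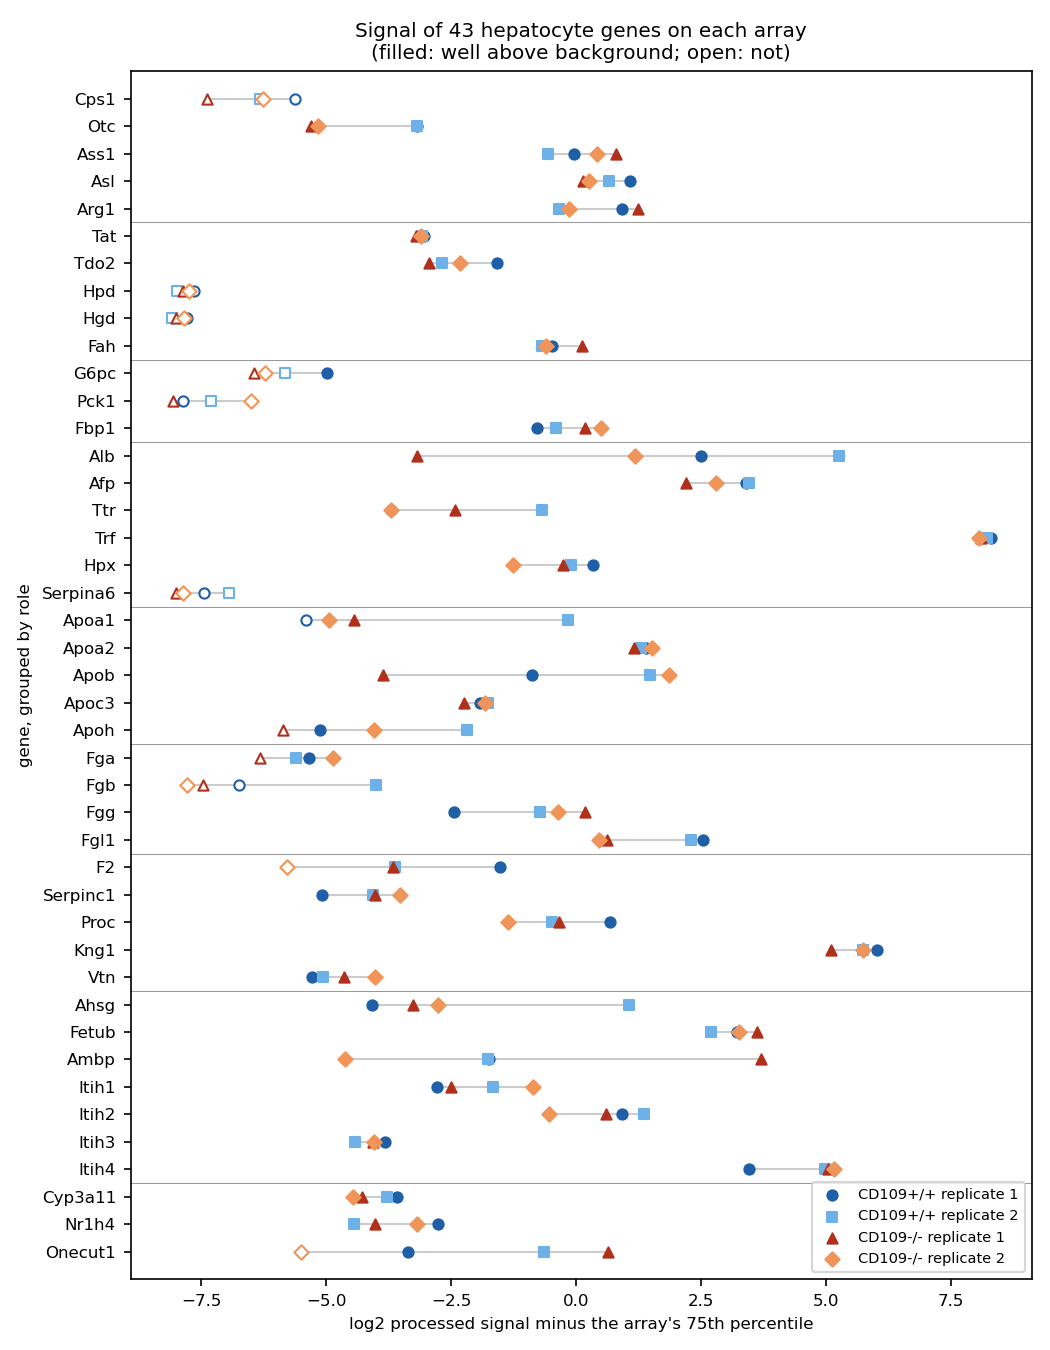
Log2 processed signal minus the array's 75th percentile (x axis) for each of the 43 genes (y axis, grouped by role); each symbol is 1 array and open symbols are not well above background. Many genes are tight, whereas Alb, Apoa1, Apob, Ahsg, Ambp and Onecut1 spread over more than 5 log2 units.

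The carrier proteins held the member with the widest spread. Alb, which encodes serum albumin, gave 2.49 and 5.25 on CD109+/+ replicates 1 and 2 and -3.19 and 1.17 on CD109-/- replicates 1 and 2. The highest array was 347-fold above the lowest, both CD109-/- arrays lay under both CD109+/+ arrays, and the second Alb probe put the arrays in the same order (0.76, 3.94, -5.42 and -0.27). The difference was -4.88 ± 1.72 (SE, n = 2 per genotype), but the replicates of a genotype were 2.76 and 4.36 apart, and leaving out 1 array at a time gave values from -7.06 to -2.70.

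Afp encodes alpha-fetoprotein, the fetal relative of albumin, and it gave 3.39 and 3.45 on the CD109+/+ arrays and 2.20 and 2.79 on the CD109-/- arrays, a difference of -0.93 ± 0.28. Alb and Afp are next to each other in the RefSeq annotation, and the range over the arrays was 8.44 for Alb and 1.26 for Afp. Hpx, the haem-binding protein of plasma, gave 0.34, -0.10, -0.26 and -1.27, so that the genotypes did not overlap. Trf, the iron carrier transferrin, was nearly level with 8.30, 8.21, 8.10 and 8.05, and its second probe did not keep the order of the genotypes (7.87, 7.87, 7.93 and 7.71). Ttr, the carrier of thyroid hormone and retinol-binding protein, gave -3.72, -0.69, -2.42 and -3.71 and stood out only on CD109+/+ replicate 2. Its second probe, well above background on only 1 array, gave -7.75, -5.01, -6.09 and -7.81.

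The promoters of Alb and Afp are shown because these neighbours share an HNF1 motif while their signals vary so differently, beside those of Fga, which also holds the motif, and of Otc, which holds none of the motifs searched. Each line gives the 150 bases before the gene's start in RefSeq, build GRCm38.p6, 5′ to 3′ along the gene, with motif matches in capitals. Alb lies at chr5:90460720-90460869, Afp at chr5:90490564-90490713, Fga at chr3:83026003-83026152 and Otc at chrX:10252155-10252304, all on the plus strand.
Alb: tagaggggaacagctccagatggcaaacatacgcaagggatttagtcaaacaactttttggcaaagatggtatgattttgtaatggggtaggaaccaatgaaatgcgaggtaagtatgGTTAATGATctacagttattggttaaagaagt
Afp: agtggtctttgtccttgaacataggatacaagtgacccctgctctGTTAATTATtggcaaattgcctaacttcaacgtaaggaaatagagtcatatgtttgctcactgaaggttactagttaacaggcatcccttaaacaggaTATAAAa
Fga: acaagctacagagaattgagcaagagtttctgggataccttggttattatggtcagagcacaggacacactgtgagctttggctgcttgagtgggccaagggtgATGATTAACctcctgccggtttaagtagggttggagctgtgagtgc
Otc: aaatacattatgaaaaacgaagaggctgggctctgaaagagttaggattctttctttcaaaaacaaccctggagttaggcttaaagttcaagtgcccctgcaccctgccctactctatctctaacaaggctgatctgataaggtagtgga

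In these stretches the capitals are an HNF1 match in Alb (bases -32 to -24 from the start), Afp (-105 to -97) and, on the opposite strand, Fga (-46 to -38), and a TATA match in Afp. RefSeq windows of 250 bases before to 50 after the start were found for 33 of the 43 genes and searched on both strands. The HNF1 motif GTTAATNAT was in the windows of 4 of the 33 genes (Afp, Alb, Fga and G6pc) and in 0.801% of all 32851 windows. The FOXA motif TGTTTAC was in 4 (Apoa2, Apoh, Cyp3a11 and Fetub) against 3.65% of windows, and TATAAA in 11 (33.3%) against 13.6%. The C/EBP motif TTGCNNCAA was in 2 (6.06%) against 2.08%, the ONECUT motif ATTGATT in 2 (6.06%) against 2.86%, and the HNF4 motif CAAAGTCCA in 1 (3.03%, Cyp3a11) against 0.475%. A gene with 2 windows was counted once if either held the motif. No match shown here overlaps another motif, and a match is a run of letters, not a measured binding site.

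Among the apolipoproteins, the protein parts of blood lipid particles, 3 varied strongly and 2 hardly at all. Apoa1, the main protein of high-density lipoprotein, gave -5.40, -0.16, -4.46 and -4.95. CD109+/+ replicate 2 was 19.7-fold above the next array for Apoa1, and on CD109+/+ replicate 1 the probe was not well above background. Apob, which encodes a structural protein of very low-density lipoprotein, gave -0.88, 1.47, -3.86 and 1.86, and its second probe gave -3.64, -1.82, -6.56 and -0.95. Apob was thus lowest on CD109-/- replicate 1 by both probes and high on both arrays numbered 2, so that the genotypes overlapped. Apoh, a phospholipid-binding plasma protein, gave -5.14, -2.19, -5.88 and -4.05, again highest on CD109+/+ replicate 2. Apoa2 was steady at 1.39, 1.29, 1.16 and 1.52, and Apoc3, an inhibitor of lipoprotein lipase, at -1.92, -1.77, -2.25 and -1.83. By these probes the genotypes were apart in none of these 5 genes. A second Apoa2 probe did set them apart, by a small step (-2.72, -2.55, -2.97 and -2.82). The further Apoc3 probes were well above background on 0 arrays. One gave -6.53, -7.18, -7.35 and -7.46 and the other -7.79, -8.07, -8.00 and -7.85, so the Apoc3 signal rests on a single probe.

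The 3 fibrinogen chains, which are the substrate of clotting, are encoded side by side. Whether they vary together cannot be read here, since Fga and Fgb lay near the limit of detection. Fga gave -5.36, -5.60, -6.33 and -4.86, the value of -6.33 not well above background. Its second probe was well above background on 0 arrays (-7.10, -6.52, -5.76 and -6.37). Fgb was measured above background on a single array. Fgg, the gamma chain, was higher on both CD109-/- arrays, with -2.44 and -0.73 against 0.18 and -0.37 and a difference of 1.49 ± 0.63, which ran from 0.64 on leaving out CD109+/+ replicate 1 to 2.35 on leaving out the other replicate. Fgl1, a fibrinogen-like protein secreted by hepatocytes, gave 2.54 and 2.30 on the CD109+/+ arrays and 0.61 and 0.46 on the CD109-/- arrays. Its replicates were 0.25 and 0.14 apart and its difference was -1.89 ± 0.23, the value for which it was selected.

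Of the clotting genes, F2, which encodes prothrombin, gave -1.52, -3.63, -3.67 and -5.80, with only the last not well above background. One array of each genotype thus had nearly the same F2 value. Proc, the anticoagulant protein C, gave 0.67, -0.50, -0.34 and -1.37, and Kng1, the kininogen that yields bradykinin, 6.01, 5.73, 5.10 and 5.73. Of its further probes, one gave 2.63, 2.44, 1.81 and 2.64 and the other -2.56, -2.83, -2.81 and -2.46, so that the probes did not share a direction, and RNA of the close copy Kng2 may be taken up as well. Serpinc1, the thrombin inhibitor antithrombin, had higher values on the CD109-/- arrays (-5.10 and -4.07 against -4.03 and -3.52), as did Vtn, the adhesive plasma protein vitronectin (-5.28 and -5.06 against -4.65 and -4.03). For Serpinc1 the gap between the genotypes was far less than the distance between its replicates. Both genes were dim, and with normexp background correction the differences of Serpinc1 and Vtn were 0.19 and 0.11 in place of 0.80 and 0.83.

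The fetuins and the inter-alpha-inhibitor family, whose heavy chains bind hyaluronan in the matrix, gave a signal on all 4 arrays for 7 of 7 genes. Ahsg, or fetuin-A, which keeps calcium phosphate in solution, gave -4.10, 1.05, -3.26 and -2.76, with CD109+/+ replicate 2 at 14.0-fold above the next array. Its neighbour Fetub, a protease inhibitor, varied less, with 3.21, 2.70, 3.62 and 3.25. Ambp, the precursor of bikunin, the light chain of the family, gave -1.74 and -1.76 with Cd109 intact but 3.70 and -4.62 without it. The 2 CD109-/- arrays were therefore the highest and the lowest for Ambp, 320-fold apart, on either side of the CD109+/+ pair.

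The heavy chain genes Itih4, Itih3 and Itih1 stand next to each other in the genome and gave separate patterns. Itih4 was at 3.45 on CD109+/+ replicate 1 and at 4.98, 5.04 and 5.15 on the other three arrays. Itih1 was at -2.79, -1.67, -2.51 and -0.87, and Itih3 was steady at -3.82, -4.44, -4.08 and -4.05. Itih2, which lies elsewhere, gave 0.92, 1.35, 0.60 and -0.54, so that its genotypes did not overlap.

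The urea cycle was represented unevenly. Otc, the mitochondrial enzyme that makes citrulline, gave -3.19, -3.18, -5.30 and -5.16. On the CD109-/- arrays it lay close above the lowest values called well above background (-5.81 and -5.65). The difference of Otc, the value for which it was selected, was -2.05 ± 0.21, and it was -0.87 with normexp background correction. The later steps went different ways. Ass1, which joins citrulline to aspartate, gave -0.05 and -0.57 against 0.80 and 0.42, whereas Asl, which splits the product, gave 1.07 and 0.65 against 0.13 and 0.25. Arg1, the last enzyme, gave 0.92 and -0.36 against 1.23 and -0.14, with overlapping genotypes. The summed signal of 10 macrophage and monocyte markers was 39.0, 50.9, 85.3 and 70.4 times the 75th percentile, and its part in the Arg1 values was not tested.

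Of the amino acid and sugar enzymes tested, Tat varied least. It is the first enzyme of tyrosine breakdown and was level at -3.04, -3.09, -3.21 and -3.12, and Fah, the last enzyme of that route, gave -0.48, -0.69, 0.12 and -0.60. The enzymes between them, Hpd and Hgd, were not well above background on any array. Tdo2, which opens tryptophan breakdown, gave -1.59, -2.70, -2.94 and -2.33. Fbp1, a gluconeogenic enzyme, gave -0.79, -0.41, 0.18 and 0.50, a difference of 0.94 ± 0.26.

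Of the remaining genes, Cyp3a11, a drug-metabolising cytochrome P450 with close copies that its probe may share, gave -3.59 and -3.78 against -4.30 and -4.47, a difference of -0.70 ± 0.22 that was -0.26 with normexp. The bile acid receptor gene Nr1h4 gave -2.77, -4.44, -4.03 and -3.19 with no separation of the genotypes. Onecut1, which encodes the liver transcription factor HNF6, gave -3.36, -0.65, 0.63 and -5.52, the last not well above background. Its relative Onecut2, which is no member, put the arrays in the same order (-0.10, 2.54, 3.91 and -1.83).

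Across the list, the hepatocyte genes spread widely between samples. The range over the 4 arrays was at least 2 for 13 of the 36 members tested (Otc, Fgl1, Alb, Ttr, Apoa1, Apob, Apoh, Fgg, F2, Proc, Ahsg, Ambp and Onecut1), against 6.90% of the 16443 genes tested over the whole array. The median range was 1.60 for the members and 0.65 over all genes tested. For 11 of these 13, Otc and Fgl1 aside, the replicates of at least 1 genotype were over 1 apart. The threshold of 2 was set after the values were seen, and no test was made.

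**Figure D2:**
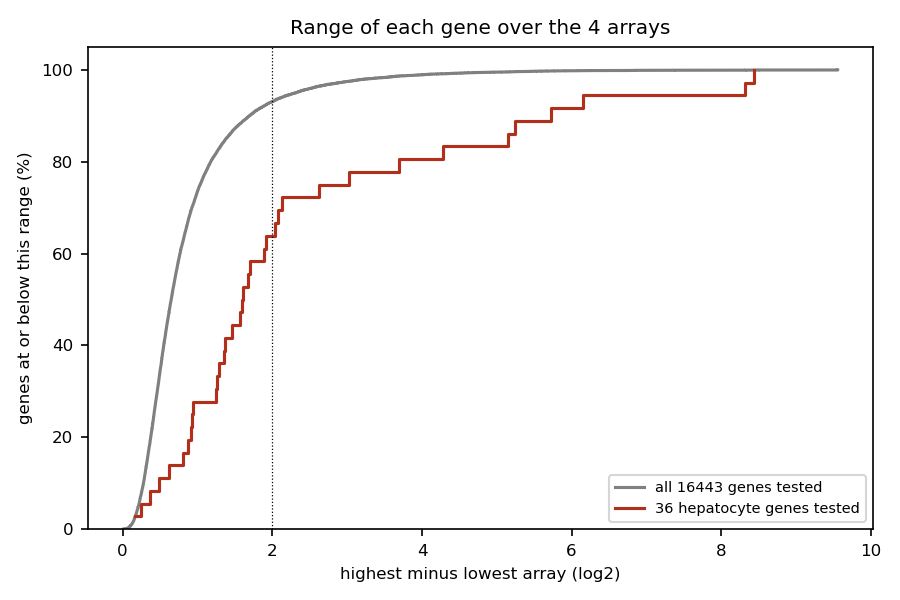
Cumulative share of genes (y axis, %) by the range between the highest and lowest of the 4 arrays (x axis, log2), for the 36 members tested and all 16443 genes tested. The members' curve lies to the right, with a median range of 1.60 against 0.65, and the dotted line marks a range of 2.

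Otc and Fgl1 aside, the wide ranges had 1 array apart at the top, at the bottom, or at both ends. CD109+/+ replicate 2 stood above the next array by at least 1 for 5 of 36 members (Alb, Ttr, Apoa1, Apoh and Ahsg), against 0.560% of all genes tested. CD109+/+ replicate 1 did so for 2 members (F2 and Proc; 0.736% of all genes), CD109-/- replicate 1 for 2 (Ambp and Onecut1; 1.73%) and CD109-/- replicate 2 for 0 (1.20%). CD109-/- replicate 2 stood below the next array by at least 1 for 5 members, namely Hpx, F2, Itih2, Ambp and Onecut1 (1.30% of all genes). CD109+/+ replicate 1 did so for 3 (Fgg, Serpinc1 and Itih4; 1.31%), CD109-/- replicate 1 for 2 (Alb and Apob; 1.93%) and CD109+/+ replicate 2 for 0 (0.359%). The 5 genes that were high on CD109+/+ replicate 2 all encode plasma proteins, but so do many members without this pattern, such as Trf, Apoa2 and Hpx. The step of 1 was set after the values were seen. Fgb, not tested, was well above background on that array alone.

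**Figure D3:**
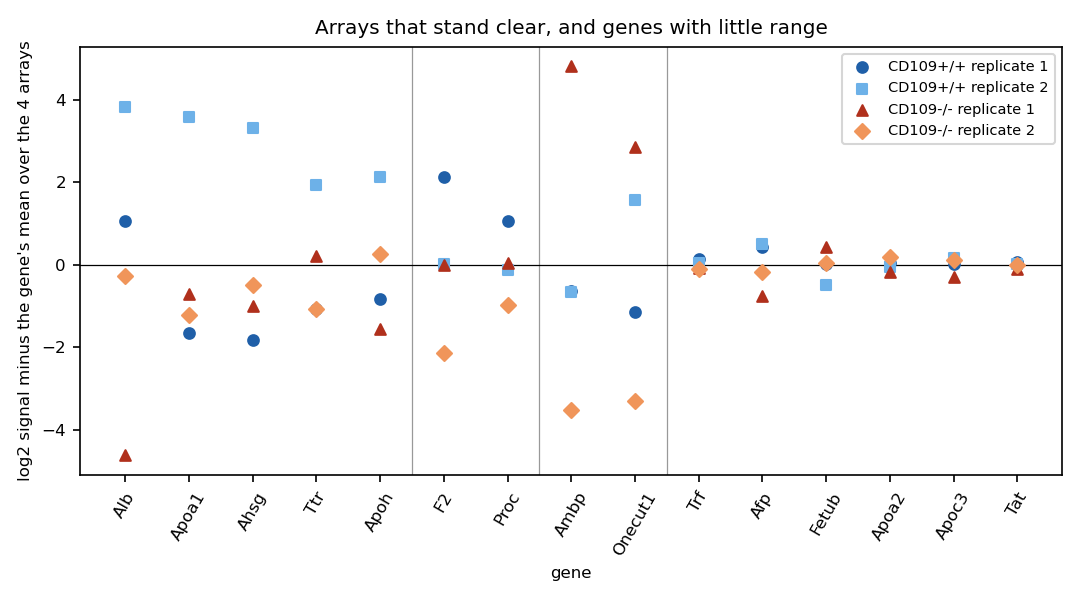
Log2 signal of each array minus the gene's mean over the 4 arrays (y axis) for 15 members (x axis). Vertical lines separate the genes highest by at least 1 on CD109+/+ replicate 2, on CD109+/+ replicate 1 and on CD109-/- replicate 1. The last block holds 6 genes with a range under the members' median of 1.60. In the first block CD109+/+ replicate 2 stands 19.7-fold above the next array for Apoa1 and 14.0-fold for Ahsg, whereas Trf and Tat stay near 0.

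Some markers of other cells had their highest or lowest sums on the same arrays. The summed signal of 10 defining hepatocyte markers, 7 of which are members, was 8.84, 45.1, 3.08 and 5.84 times the 75th percentile. Alb alone made up 5.60, 38.0, 0.11 and 2.25 of it, and so carried the sum on the CD109+/+ arrays only. Without Alb the other 9 gave 3.24, 7.06, 2.97 and 3.60. Of these markers 6 were well above background on all 4 arrays, and the major urinary protein gene Mup3 on none. Cyp2e1, a P450 enzyme abundant in liver, stayed near the limit between -5.92 and -5.27. The alveolar type 2 sum was nearly level at 1459, 1448, 1415 and 1354. The sum of 5 platelet markers was 8.17, 53.0, 8.05 and 20.7. Pf4 carried it, ranged from 2.94 to 5.73 and was highest on CD109+/+ replicate 2, like the hepatocyte sum. Ppbp, however, was lowest on that array (-3.02, -4.78, -1.65 and -3.79), and Gp1bb stayed between -5.93 and -4.86. Gp9 and Itga2b, which define platelets, were well above background on 1 array each. Summed, the 4 red blood cell markers on the array gave 31.2, 33.6, 43.3 and 62.0. On CD109-/- replicate 2, where Ambp and Onecut1 were lowest, the sum of 6 cholangiocyte markers was also lowest (166, 98.1, 231 and 38.8), as was that of 12 gastric and intestinal genes (165, 101, 161 and 44.3). Cdx2 and Gkn1 of the latter were not well above background on any array. Of the other gastric and intestinal genes, Gkn2 was lowest on CD109-/- replicate 1 (6.19, 6.08, 3.10 and 4.80). Tff1 was lowest on CD109+/+ replicate 2 (5.60, 1.90, 5.92 and 2.21). The rest, Onecut2 among them, were lowest on CD109-/- replicate 2. Spp1, at 6.41, 5.99, 7.25 and 3.13, carried much of the cholangiocyte sum. Of these markers, Sox9 was lowest on CD109-/- replicate 1 (-1.64), Cftr on CD109+/+ replicate 1 (-5.15) and the others on CD109-/- replicate 2. The part of these other cells in the patterns of CD109+/+ replicate 2 and CD109-/- replicate 2 was not tested.

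Between the genotypes, the hepatocyte genes differed in both directions. Of the 36 members tested, 24 had lower and 12 higher mean values in CD109-/- tumours, with a median difference of -0.32 against 0.003 over all genes, and 22 to 24 were lower under quantile, median, normexp or the authors' scaling. Without Otc and Fgl1 the median was -0.19. With limma, 0 of 36 members passed the Benjamini-Hochberg threshold of 0.05, as did 0% of all genes, and 9 of 36 had an unadjusted p under 0.05 (7.41% of all genes). Since members were selected on this contrast, nothing is read from these counts.

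For single members, the direction is described by whether the arrays of the genotypes overlap. Both CD109-/- arrays lay below both CD109+/+ arrays for 12 of 36 members (18.3% of all genes) and above them for 7 (20.3%), and 17 overlapped. The lower ones were Otc, Asl, Tat, Alb, Afp, Trf, Hpx, Fgl1, F2, Kng1, Itih2 and Cyp3a11. The higher ones were Ass1, Fbp1, Fgg, Serpinc1, Vtn, Fetub and Itih4. For Kng1, a single pair of arrays printed alike above (5.73) decided its place, and a further probe overlapped. In Tat and Trf the genotypes differed by only -0.09 ± 0.21 and -0.18 ± 0.21, less than their errors, and quantile or median scaling left 9 or 8 members lower and 6 higher in this sense. A difference of at least 1 downward was found in 9 members (2.49% of all genes) and upward in 2 (4.02%), but in only 5 of the 9, Alb, F2, Otc, Fgl1 and Itih2, were the genotypes apart.

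Among these 5, Otc and Fgl1, which were selected on this contrast, had replicates within 0.25 of each other in both genotypes. Those of Alb and F2 were over 2 apart. Itih2 had replicates 0.43 and 1.14 apart and a difference of -1.11 ± 0.45, which ran from -1.68 on leaving out CD109-/- replicate 1 to -0.53 on leaving out CD109-/- replicate 2. That of F2 ran from -3.22 to -1.09 with 1 array left out. For Apoa1 and Ahsg the lower means rested on CD109+/+ replicate 2, without which their differences were 0.70 and 1.08 in place of -1.92 and -1.49. Without that array Apoh was at 0.17 in place of -1.30 and Ttr at 0.65 in place of -0.86, and Apob was at 1.56 in place of -1.29 without CD109-/- replicate 1. In all, 16 of the 17 overlapping members took the other sign on leaving out 1 array or another. For Ambp the higher mean rested on CD109-/- replicate 1, the only male, without which the difference was -2.87 in place of 1.29.

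**Figure D4:**
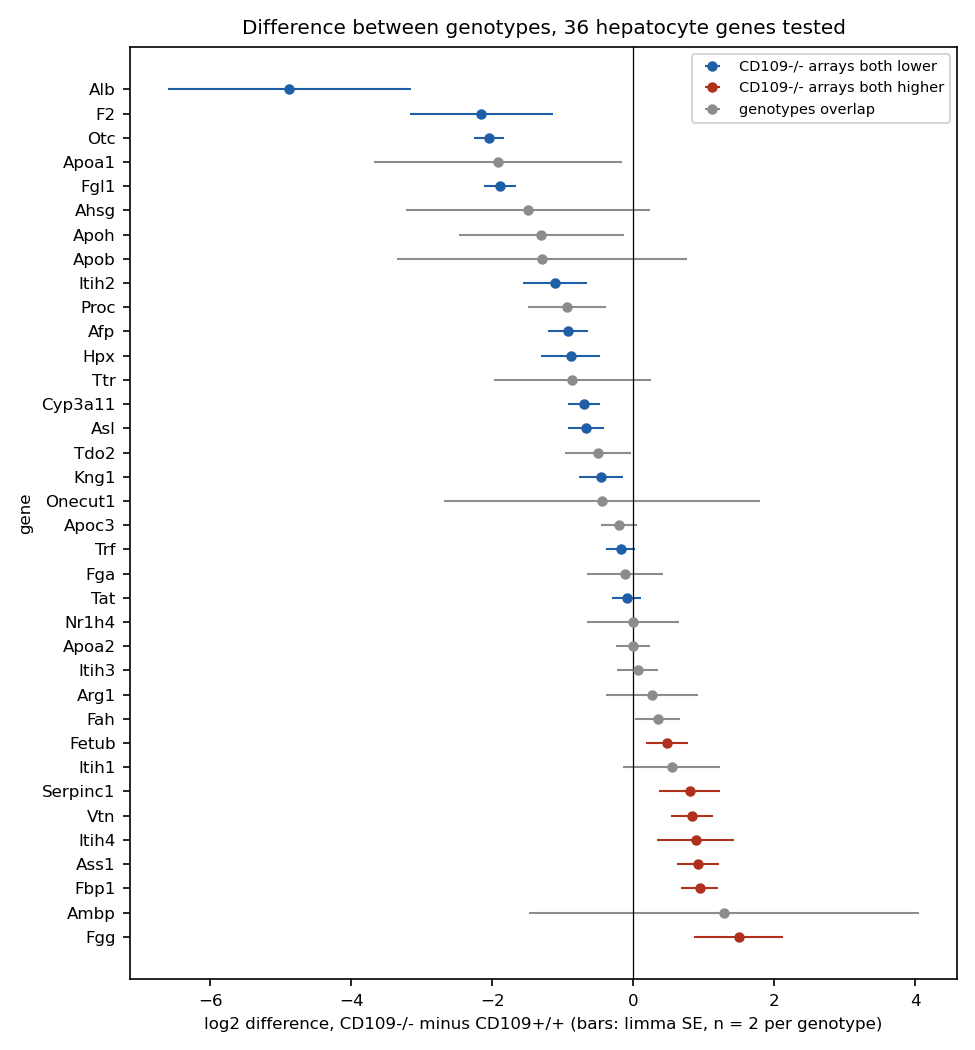
Difference of each of the 36 members tested (y axis) between genotypes (x axis, log2, CD109-/- minus CD109+/+; bars are limma's SE, n = 2 per genotype). Otc and Fgl1, which were selected on this contrast, combine a large difference with a small error. Alb (-4.88 ± 1.72), Apoa1, Ahsg and Ambp carry wide errors.

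Other hepatocyte genes were read from lists drawn up by known function. Of the transcription factors, 19 of 20 were tested, 12 with lower and 7 with higher values in CD109-/- tumours (median -0.16). With limma 0 passed the threshold, and 4 had an unadjusted p under 0.05, against 7.41% of all genes. Nr1i3, the xenobiotic receptor CAR, gave -1.70 and -1.58 against -2.69 and -2.37. Cebpb, which drives acute-phase genes, had higher values, with 3.21 and 3.08 against 3.88 and 4.09. Hnf4a was well above background on all arrays (3.87, 3.34, 3.59 and 2.21) and Foxa2 was level between 3.96 and 4.18, both named after their values were seen.

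**Figure D5:**
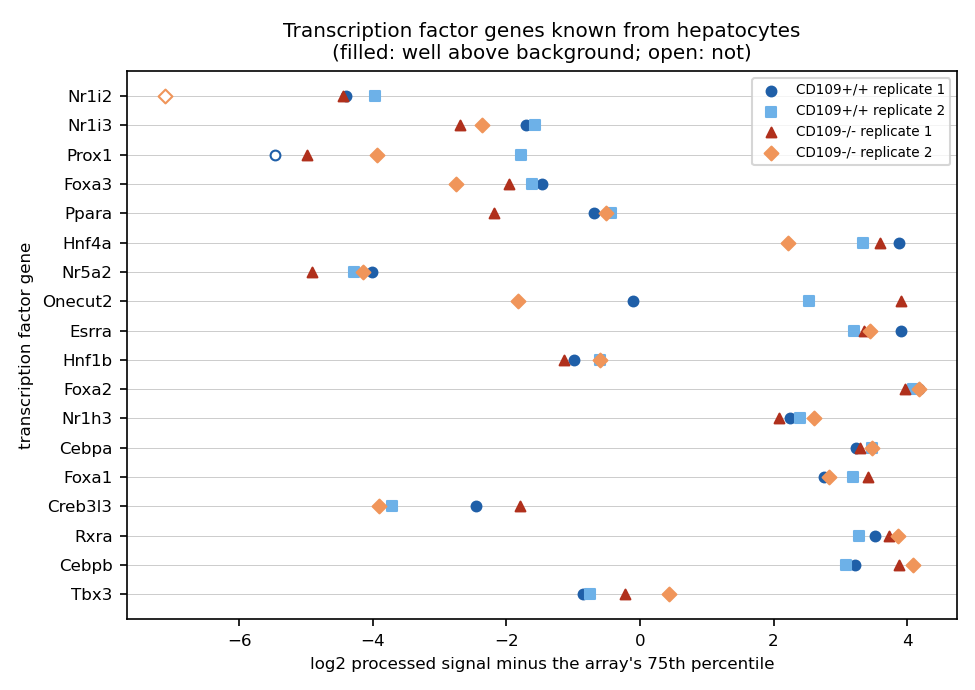
Log2 processed signal minus the array's 75th percentile (x axis) for transcription factor genes tested (y axis, ordered by the difference between genotypes); each symbol is 1 array and open symbols are not well above background. Foxa2 and Cebpa are tight, Nr1i3 is lower on both CD109-/- arrays, and Onecut2 spreads over the arrays of both genotypes.

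The wider list of secreted plasma proteins held 20 of 40 tested genes with lower and 20 with higher values in CD109-/- tumours, with a median of 0.01. Of the 40, 14 were lower and 7 higher by at least 1 (2.49% and 4.02% of all genes). With limma 0 passed the threshold, and 8 lower and 6 higher had an unadjusted p under 0.05, against 7.41% of all genes in either direction. Mst1, which encodes macrophage-stimulating protein, gave -1.19 and -1.23 against -3.69 and -3.46. Igfals, the carrier subunit for insulin-like growth factors, gave -2.41 and -2.95 against -5.14 and -5.27. These genes had been named with Otc and Fgl1 in earlier results and add no independent support. Standing above the next array by at least 1 on CD109+/+ replicate 2 were 2 of the 40, Gc and Agt, named after their values were seen. Gc, the vitamin D carrier of the albumin family, gave -1.98, 4.04, -1.04 and -0.35, and Agt, the precursor of angiotensin, -4.50, -0.11, -6.89 and -2.82, the value of -6.89 not well above background.

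The metabolic lists were mixed in direction, and 0 of their genes passed limma's threshold. Over all genes, 7.41% had an unadjusted p under 0.05 with limma. Among amino acid enzymes 12 of 22 tested were lower (median -0.06; 3 at an unadjusted p under 0.05), with Sardh, a sarcosine-degrading enzyme, at -0.76 ± 0.23, and Kmo and Kynu of the kynurenine route at 0.88 ± 0.27 and 0.67 ± 0.23. Among glucose and lipid genes 12 of 25 were lower (median 0.11; 3 at an unadjusted p under 0.05). Mttp, which loads lipid onto apolipoprotein B, gave -0.13 and -1.25 against -2.30 and -2.99, while the glycogen phosphorylase gene Pygl and the lipid droplet gene Plin2 had higher values, by 1.14 ± 0.25 and 0.78 ± 0.24. Among bile acid and drug metabolism genes 7 of 14 were lower (median -0.05; 3 at an unadjusted p under 0.05), and Nnmt, Aldh1a1 and Cyp2f2 had higher values, by 1.13 ± 0.22, 1.42 ± 0.47 and 0.76 ± 0.26. Cyp2f2 and Aldh1a1 are also known from airway cells, and the sum of 6 club and ciliated cell markers, Cyp2f2 among them, was 85.0 and 134 times the 75th percentile in CD109+/+ and 227 and 295 times in CD109-/- tumours.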

How the data were processed

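Total RNA of 4 lung tumour samples was labelled with Cy3 from 100 ng and hybridised to Agilent arrays, per the labels' protocols. The authors' scanner files hold linear intensity values made with Agilent Feature Extraction 12.1.0.3, per the file headers. The authors also deposited a value table, whose intensity values equal each array's processed signal times a constant (1.04 to 1.21; column medians 58.8, 76.1, 59.5 and 69.2), uncentred, and served as an alternative. Spots with outlier marks (58 to 73 on an array) were dropped. For the other spots log2 was taken here and averaged over each probe, and log2 of the array's 75th percentile was then subtracted. Of 56605 probes, 34566 were named by accession through the RefSeq table of GRCm38.p6. Each gene took its brightest probe among those with signal on both arrays of either genotype, or else its brightest probe. Genotypes were compared over 16443 genes with limma 3.58.1 in R 4.3.3 (2 residual and 2.54 prior degrees of freedom), with Benjamini-Hochberg adjustment, after a test on simulated data. Summed marker signals are linear. All members were named; from each further list the 3 genes with the largest moderated t were named, with Igfals, Mst1 and Cd109, and any others after their values were seen; some genes under this rule are not reported here. The members and lists were chosen with earlier results of these data known. With a single slide and scan session for the 4 arrays, a slide block could not be fitted.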

Additional observations from a re-analysis of the deposited data

How the results depend on the processing

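Under the alternatives of background correction, normalization, filtering, variance model, block, sex, probe choice and left-out arrays, limma called 0 members and 0 genes of the hepatocyte lists, and the members' median difference stayed below 0 (-0.44 to -0.12). Sex as a covariate gave the same fit as leaving out CD109-/- replicate 1, the only male, and is no separate check. With the replicate number as a block, 0 members passed, the median difference stayed at -0.32, and 1898 genes in place of 1219 had an unadjusted p under 0.05. The labels do not say that the numbers pair the samples, and same-numbered arrays deviated together with r = 0.36 across genes. Members whose CD109-/- arrays were both higher numbered 7, and 11 whichever array was left out, where fewer arrays make separation easier; the lower ones then numbered 15 to 18 in place of 12. Unadjusted counts over all genes ran from 553 without CD109+/+ replicate 1 to 1929 without CD109-/- replicate 2. Members well above background on all arrays numbered 31, or 38 by the scanner's weaker flag. Normexp used median spot signals. With 1 array left out, the lone array was assumed to vary like the others. The number of arrays limits the precision.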
